A study of Homo sapiens with 12 samples.

Results

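The genes described are 10 of the 23273 listed in each expression table, chosen by symbol. They are 5 transcription factors of the epithelial to mesenchymal transition (SNAI1, SNAI2, TWIST1, ZEB1 and ZEB2), the cadherins CDH1, CDH2 and CDH3, the tight junction gene CLDN1 and the intermediate filament gene VIM. RNA was sequenced from the BRAF-mutant melanoma cell lines COLO858 and MMACSF, each grown in DMSO (the vehicle) or in 0.2 μM vemurafenib, a RAF inhibitor, for 24 or 48 h. Each of the 6 groups had 2 replicates, which makes 12 libraries. The labels give no time in culture for the DMSO plates, and the growth medium differed between the lines. Levels are given in FPKM, which count fragments relative to transcript length and to the mapped fragments of a library.

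The epithelial to mesenchymal transition is a program in which cells loosen their junctions with neighbours and gain motility. SNAI1, SNAI2, ZEB1 and ZEB2 are zinc finger repressors that bind the E-box CACCTG, and E-cadherin (CDH1) is a textbook target of all of them. TWIST1 is a basic helix-loop-helix factor of the same program. Melanocytes come from the neural crest, where these factors also act, and they hold on to keratinocytes in the skin through E-cadherin and P-cadherin (CDH3). In melanoma, SNAI2 and ZEB2 are known as factors of the differentiated state, ZEB1 and TWIST1 as factors of a dedifferentiated and invasive state, and a switch from E-cadherin to N-cadherin (CDH2) accompanies invasion.

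Promoter windows from RefSeq (GRCh38.p14) were taken for 5 of the 10 genes, namely ZEB1, ZEB2, CDH2, CLDN1 and VIM, with 12 windows in all. SNAI2 was left out of this search, so the counts of sites below say nothing of its promoter. They hold only for the 12 windows, and a gene that is absent here may still have a window in RefSeq. Each window, the 250 bases before a start site, occurred once in hg19 (GRCh37), and the coordinates given are those of that match. They were searched on both strands for the E-box of the SNAI and ZEB factors (CACCTG or CAGGTG) and for the AP-1 site TGAGTCA or TGACTCA.

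The window of CLDN1 and a window of CDH2 are shown because these genes had opposite changes in COLO858. That of VIM is shown because VIM was the most abundant of the 10 genes. A window of ZEB1 is shown because ZEB1 was the only gene of the 5 with an E-box. The windows shown are chr3:190040236-190040485 (CLDN1, minus strand), chr18:25757095-25757344 (CDH2, minus strand), chr10:17269990-17270239 (VIM, plus strand) and chr10:31607096-31607345 (ZEB1, plus strand), written 5′ to 3′ with the E-box in capitals.
CLDN1: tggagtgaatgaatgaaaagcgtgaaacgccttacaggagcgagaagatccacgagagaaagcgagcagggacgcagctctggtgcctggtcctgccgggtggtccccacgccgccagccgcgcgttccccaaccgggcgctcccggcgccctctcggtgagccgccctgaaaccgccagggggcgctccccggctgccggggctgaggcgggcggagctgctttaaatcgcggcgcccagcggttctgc
CDH2: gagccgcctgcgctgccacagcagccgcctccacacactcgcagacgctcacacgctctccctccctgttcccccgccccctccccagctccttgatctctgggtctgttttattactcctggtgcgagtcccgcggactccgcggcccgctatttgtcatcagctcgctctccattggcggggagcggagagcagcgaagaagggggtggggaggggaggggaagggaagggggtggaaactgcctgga
VIM: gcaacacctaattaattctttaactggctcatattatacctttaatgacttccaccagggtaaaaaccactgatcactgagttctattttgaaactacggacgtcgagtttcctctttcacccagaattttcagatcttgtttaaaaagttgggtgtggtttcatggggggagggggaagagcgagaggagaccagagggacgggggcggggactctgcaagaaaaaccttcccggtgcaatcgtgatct
ZEB1: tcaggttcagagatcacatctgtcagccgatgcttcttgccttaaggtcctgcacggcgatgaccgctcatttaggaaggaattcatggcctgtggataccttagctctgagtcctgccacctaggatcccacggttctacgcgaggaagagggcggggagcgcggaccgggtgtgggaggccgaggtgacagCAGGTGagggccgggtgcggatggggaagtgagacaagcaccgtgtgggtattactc
The E-box of this ZEB1 window starts at base -57 from the start site. E-boxes were found in 2 of the 12 windows, both of ZEB1, against 17.5% of 35116 windows of this length. ZEB1 had more of the 12 windows than any other gene, and so more sequence that was searched. CDH2 had a further window without an E-box, at chr18:25616606-25616855, which is not shown. The AP-1 site was found in 0 of the 12 windows, against 4.20% of all windows. The GC content was 68.8% in the CLDN1 window and 59.2% in the ZEB1 window, against a median of 58.0% over all windows. The CLDN1 window overlaps an annotated exon of CLDN16 and the ZEB1 window an exon of ZEB1-AS1.

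In the GENCODE annotation of the same build, the factor genes lie at chr20:48599517-48605423 (SNAI1), chr8:49830157-49834299 (SNAI2), chr7:19060614-19157259 (TWIST1), chr10:31607424-31818742 (ZEB1) and chr2:145121931-145278624 (ZEB2). CDH3 (chr16:68670092-68761371) and CDH1 (chr16:68771195-68869440) are neighbours on the plus strand, CDH2 lies at chr18:25512843-25757910, CLDN1 at chr3:190023496-190040235 and VIM at chr10:17270240-17279592.

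The sum of FPKM in a library ranged from 670310 to 1013040, and the non-coding gene MIR4461 took 14.1% to 43.4% of it, more in replicate 2 than in replicate 1 of every group. Replicates correlated at r = 0.966 to 0.976 across genes on the log2 scale, a description in which genes are not independent. Of 9 MAPK output genes, which fall when RAF signalling is blocked, 8 fell at each time in each line. These calls come from the limma fit and threshold described below. Among all genes tested, the share that fell was 5.71% (24 h) or 4.73% (48 h) for COLO858. For MMACSF the corresponding shares were 3.60% (24 h) or 5.41% (48 h). The ERK-dependent factor ETV4 went from 173 FPKM in DMSO to 2.69 at 48 h in COLO858 and from 90.1 to 1.52 in MMACSF. The melanocyte enzyme DCT was present in both lines. The melanocyte markers MLANA and TYR had mean levels of 0.319 to 1.18 FPKM in COLO858 and of 189.5 or more in MMACSF. Other markers of this lineage did not all follow them. In DMSO, 24 h and 48 h, SOX10 had means of 193, 302 and 388 FPKM in COLO858 and 245, 309 and 367 in MMACSF. MITF had 67.7, 109 and 67.3 against 209, 222 and 239, and TYRP1 2.76, 14.3 and 13.3 against 1.96, 5.18 and 5.51. PMEL had 64.6, 243 and 509 against 7944, 10657 and 11552. The keratinocyte gene KRT5 and the T cell gene CD3E were listed at 0 in every group. CD68, also read as an immune marker, had means of 13.0, 7.29 and 4.44 FPKM in COLO858 (DMSO, 24 h and 48 h) and 82.0, 53.4 and 80.1 in MMACSF.

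Each line was tested on its own with limma, after log2(FPKM + 1), for those genes where any of the line's groups reached a mean of 1 FPKM. The fit had no term for the replicate number (a replicate block), and calls are from that fit unless another is named. In most contrasts more genes passed with a block, as given in the part on processing. A gene was said to rise or fall where the Benjamini-Hochberg adjusted p over all genes tested was below 0.01. Log2 fold-changes and their standard errors (SE) are on that scale, which understates changes of low genes, and the ratios of group means are of FPKM as deposited. Both times were compared with the same 2 DMSO libraries of a line, so they are not independent of each other. In bulk RNA, more cells that express a gene and more RNA per cell cannot be told apart.

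In COLO858, SNAI1 and CDH2 fell after 24 h of vemurafenib and SNAI2, ZEB2 and CLDN1 rose. That was 5 of the 9 genes tested, against 9.82% of all genes tested, of which 4.11% of genes were higher and 5.71% lower. At 48 h, SNAI1 was still lower and SNAI2, ZEB2 and CLDN1 were still higher, which made 4 of 9 against a background of 9.47% (4.74% higher and 4.73% lower). In MMACSF, SNAI1 fell and SNAI2 and ZEB2 rose at 24 h, 3 of 9 genes against 5.83% (2.22% higher and 3.60% lower). At 48 h SNAI1 was lower and ZEB2 higher there, 2 of 9 against 8.83% (3.42% higher and 5.41% lower). CDH3 in COLO858 and CLDN1 in MMACSF were below 1 FPKM in every group and were not tested. The minimum was reached only in the DMSO group by SNAI1 in MMACSF, whose place in those counts rests on that group, and only in the 24 h group by CDH1 in COLO858.

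The log2 fold-change of each gene that rose or fell kept its sign under every alternative that was run, but the calls depended on all libraries being present. With any 1 of the 4 libraries of a contrast left out, 0 of the 9 genes were past the threshold in COLO858 at 24 h and in MMACSF at either time. In COLO858 at 48 h, 0 were past it without the DMSO replicate 1 and 1, CLDN1, without the DMSO replicate 2 or either of the drug replicates. Calls over all genes dropped with them, in COLO858 from 1247 to between 66 and 92 at 24 h and from 1202 to between 111 and 138 at 48 h, and in MMACSF from 734 to between 45 and 70 and from 1113 to between 85 and 125.

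**Figure D1:**
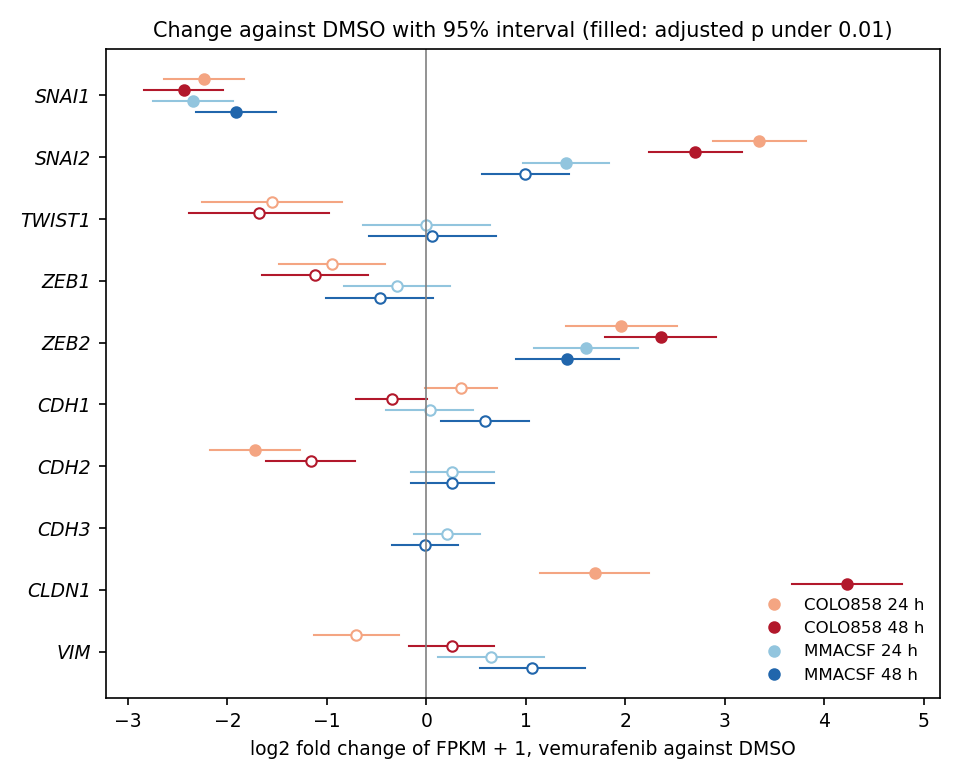
Log2 fold-change against DMSO on the log2(FPKM + 1) scale for each gene, line and time, with 95% intervals as bars. Filled symbols passed the adjusted p threshold of 0.01 and open symbols did not; SNAI1 lies left of zero and ZEB2 right of zero in all 4 contrasts, while CLDN1 at 48 h in COLO858 lies farthest to the right at 4.23.

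SNAI1 (Snail), a repressor that is induced early in the transition, was the factor that fell in both lines. In COLO858 its level was 23.5 and 19.2 FPKM in the DMSO libraries, 3.61 and 3.84 at 24 h and 3.22 and 2.97 at 48 h. The drug libraries lay far below the DMSO libraries, and the ratio of DMSO to treated means was 5.73 at 24 h and 6.90 at 48 h. SNAI1 changed by a log2 fold of -2.24 (SE 0.16, adjusted p = 0.00138, limma) by 24 h and of -2.44 (SE 0.16, adjusted p = 0.00115) by 48 h. In MMACSF its level was 7.18 and 5.83 FPKM in DMSO, 0.477 and 0.459 at 24 h and 1.01 and 0.953 at 48 h. There too no drug library reached a DMSO library, and the ratio of DMSO to treated means was 13.9 at 24 h and 6.61 at 48 h. Here the log2 fold-change was -2.35 (SE 0.16, adjusted p = 0.00181) at 24 h and -1.91 (SE 0.16, adjusted p = 0.00201) at 48 h. With 0.1 FPKM added in place of 1, the 24 h value in MMACSF was -3.53 and that in COLO858 -2.48. The 24 and 48 h levels were not told apart in either line (log2 difference -0.21, adjusted p = 0.545 in COLO858 and 0.43, adjusted p = 0.674 in MMACSF).

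SNAI2 (Slug), the SNAI family member of neural crest cells and melanocytes, rose in both lines from very different levels. In COLO858 it was 2.25 and 2.44 FPKM in DMSO, 29.8 and 36.7 at 24 h and 18.4 and 23.4 at 48 h. Every drug library was above both DMSO libraries, and the means were 14.2-fold higher at 24 h and 8.90-fold higher at 48 h. This was a log2 fold-change of 3.35 (SE 0.19, adjusted p = 0.000829) at 24 h and 2.70 (SE 0.19, adjusted p = 0.00126) at 48 h. MMACSF had 84.3 and 107 FPKM in DMSO, 236 and 270 at 24 h and 174 and 209 at 48 h. These means differed by 2.65-fold at 24 h, with a log2 fold-change of 1.40 (SE 0.17, adjusted p = 0.00713). At 48 h the log2 fold-change of 1.00 (SE 0.17, adjusted p = 0.0142) did not pass, although the libraries did not overlap, and after median-ratio rescaling it was 0.95 (adjusted p = 0.00996). Levels at 48 h were nominally below those at 24 h, by a log2 difference of -0.65 (adjusted p = 0.128) in COLO858 and -0.41 (adjusted p = 0.733) in MMACSF.

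Opposite changes of SNAI1 and SNAI2 turned their ratio around in COLO858. SNAI1 exceeded SNAI2 by 10.4 and 7.85 times in the DMSO libraries. SNAI2 exceeded SNAI1 by 8.25 and 9.55 times at 24 h and by 5.72 and 7.87 times at 48 h. In MMACSF SNAI2 was the larger of the pair in every library, by 11.7 and 18.4 times in DMSO, 496 and 590 times at 24 h and 171 and 220 times at 48 h. Their summed level in COLO858 was 25.8 and 21.6 FPKM in DMSO, 33.4 and 40.6 at 24 h and 21.6 and 26.3 at 48 h.

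TWIST1, a mesoderm and neural crest factor, did not pass the threshold in any contrast of the fit without a replicate block. COLO858 had 25.4 and 19.2 FPKM in DMSO, 8.86 and 5.26 at 24 h and 6.95 and 5.50 at 48 h. The drug libraries did not overlap the DMSO libraries, with log2 fold-changes of -1.55 (SE 0.28, adjusted p = 0.0160) and -1.68 (SE 0.28, adjusted p = 0.0127). Its MMACSF levels were 8.59 and 7.34 FPKM in DMSO, 9.28 and 6.75 at 24 h and 10.4 and 6.61 at 48 h. Those groups overlapped, and the 95% interval of the log2 fold-change ran from -0.64 to 0.63 at 24 h and from -0.58 to 0.69 at 48 h.

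ZEB1 and ZEB2 are paralogous repressors with zinc fingers at both ends. ZEB1 was low throughout and did not pass the threshold in the fit without a replicate block. With the block in limma it passed in COLO858 at 24 h (adjusted p = 0.00395) and 48 h (adjusted p = 0.00255). Its COLO858 levels were 2.59 and 3.41 FPKM in DMSO, 0.762 and 1.41 at 24 h and 0.754 and 0.908 at 48 h, with log2 fold-changes of -0.95 (SE 0.21, adjusted p = 0.0285) and -1.12 (SE 0.21, adjusted p = 0.0181). MMACSF had 1.81 and 2.62 FPKM in DMSO, 1.39 and 1.81 at 24 h and 1.06 and 1.56 at 48 h, with log2 fold-changes of -0.30 (adjusted p = 0.365) and -0.47 (adjusted p = 0.168). All drug libraries were below the lower DMSO library in both lines.

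ZEB2 rose in both lines and at both times. In COLO858 it was 8.71 and 11.99 FPKM in DMSO, 38.7 and 47.1 at 24 h and 50.0 and 63.7 at 48 h, which made the means 4.15-fold and 5.49-fold higher. The log2 fold-change was 1.96 (SE 0.22, adjusted p = 0.00419) at 24 h and 2.35 (SE 0.22, adjusted p = 0.00281) at 48 h. Levels in MMACSF were 13.4 and 17.0 FPKM in DMSO, 43.3 and 53.4 at 24 h and 36.5 and 48.5 at 48 h. Log2 fold-changes were 1.61 (SE 0.21, adjusted p = 0.00797) and 1.41 (SE 0.21, adjusted p = 0.00883). The lowest drug library of each line was well above its highest DMSO library. ZEB2 was above ZEB1 in every library. In COLO858 the ratio was 3.37 and 3.52 in DMSO, 50.8 and 33.5 at 24 h and 66.3 and 70.1 at 48 h. In MMACSF it was 7.42 and 6.52 in DMSO, 31.2 and 29.5 at 24 h and 34.3 and 30.96 at 48 h. The antisense gene ZEB2-AS1, whose exons overlap those of ZEB2, ranged from 0 to 0.633 FPKM in the DMSO libraries and from 1.77 to 7.11 in the drug libraries of the lines. ZEB1-AS1 ranged from 0.545 to 2.85 FPKM over all libraries. The strand setting of the counting is not given, and the part of the antisense reads in these values was not tested.

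**Figure D2:**
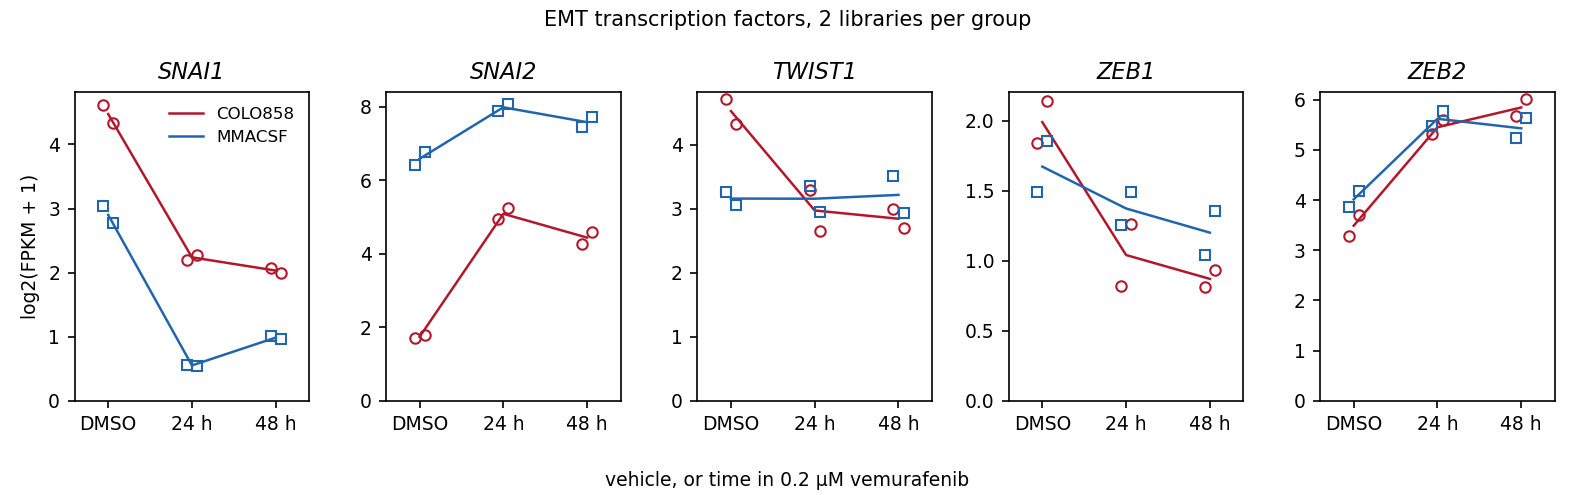
Level of the 5 transcription factors as log2(FPKM + 1) in each of the 12 libraries, with lines through the group means (COLO858 red circles, MMACSF blue squares; vertical scales differ between panels). SNAI1 drops and ZEB2 climbs in both lines, and SNAI2 in COLO858 starts at 2.25 and 2.44 FPKM and reaches 29.8 and 36.7 at 24 h.

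Within the 5 factors, COLO858 went from a mixture led by SNAI1 and TWIST1 to one led by SNAI2 and ZEB2. SNAI1 made up 37.7% and 34.1% of their summed FPKM in the DMSO libraries and TWIST1 40.7% and 34.1%. At 48 h ZEB2 made up 63.0% and 66.05% and SNAI2 23.2% and 24.2%. In MMACSF SNAI2 made up 73.1% and 76.6% of the sum in DMSO and 78.02% and 78.4% at 48 h. The sum itself was 62.4 and 56.2 FPKM in COLO858 in DMSO and 79.4 and 96.4 at 48 h, and 115 and 140 in MMACSF in DMSO and 223 and 267 at 48 h.

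**Figure D3:**
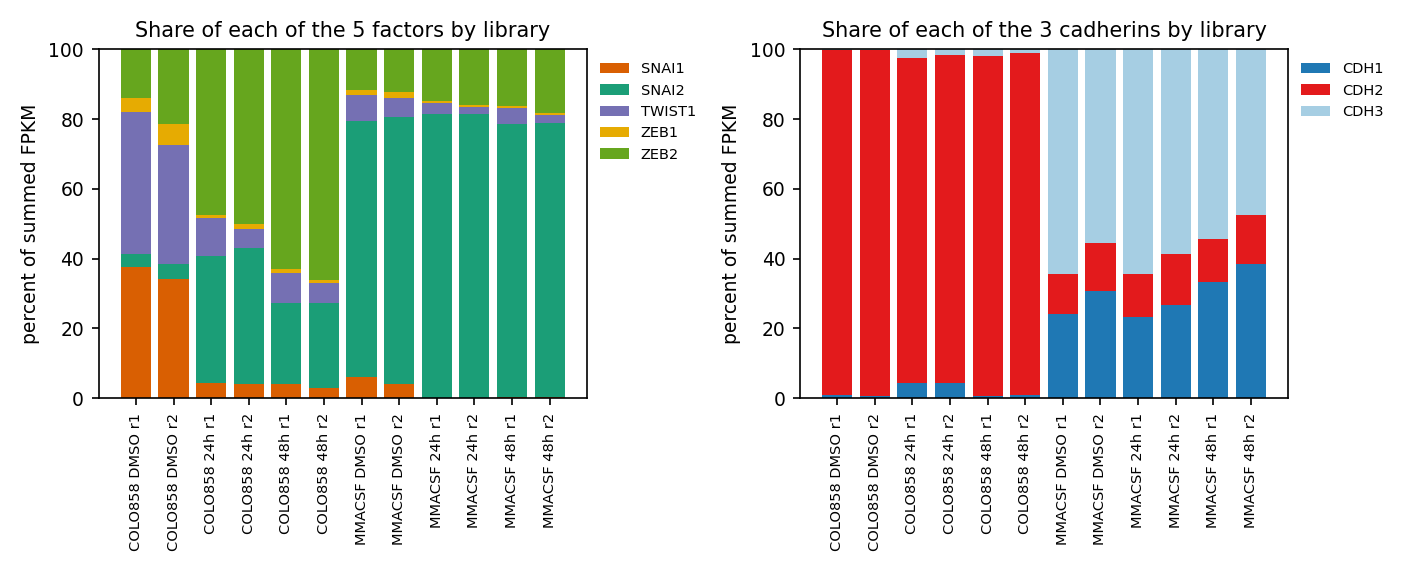
Share of each gene in the summed FPKM of the 5 factors and of the 3 cadherins, in percent, for each of the 12 libraries. In COLO858 the SNAI1 share falls from 37.7% and 34.1% in DMSO to 4.06% and 3.08% at 48 h, while CDH2 is above 93% of the cadherins in every COLO858 library.

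N-cadherin (CDH2), the cadherin of neural and mesenchymal cells, fell in COLO858 at 24 h and did not pass the threshold in MMACSF. In COLO858 it was 73.0 and 86.9 FPKM in DMSO, 22.0 and 25.0 at 24 h and 31.2 and 39.2 at 48 h. The DMSO mean was 3.41 times that at 24 h and 2.27 times that at 48 h, and no libraries overlapped. The log2 fold-change was -1.72 (SE 0.18, adjusted p = 0.00341) at 24 h. At 48 h it was -1.17 (SE 0.18, adjusted p = 0.0101), just outside the threshold, and it passed after median-ratio rescaling (-1.15, adjusted p = 0.00452). In MMACSF it was 9.84 and 12.003 FPKM in DMSO, 12.1 and 14.4 at 24 h and 12.3 and 14.2 at 48 h. The 95% interval of the log2 fold-change there ran from -0.16 to 0.68 at both times.

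E-cadherin (CDH1), the main cadherin of epithelial cells and melanocytes, did not pass the threshold in either line in the fit without a replicate block. It was near 1 FPKM or below in COLO858, at 0.626 and 0.662 in DMSO, 1.00 and 1.18 at 24 h and 0.204 and 0.379 at 48 h. In MMACSF it was 20.8 and 27.0 FPKM in DMSO, 22.8 and 25.9 at 24 h and 33.3 and 39.2 at 48 h. The MMACSF libraries at 48 h lay above those in DMSO, with a log2 fold-change of 0.59 (SE 0.17, adjusted p = 0.0635). P-cadherin (CDH3) was 55.3 and 48.9 FPKM in MMACSF in DMSO, 63.3 and 56.9 at 24 h and 54.5 and 48.4 at 48 h. Its log2 fold-change there was 0.20 (95% interval -0.13 to 0.53) at 24 h and -0.02 (-0.35 to 0.31) at 48 h. In COLO858 CDH3 was 0.0819 and 0.0789 FPKM in DMSO, 0.615 and 0.447 at 24 h and 0.577 and 0.408 at 48 h, all under the minimum for a test.

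The leading cadherin within a library was not the same in both lines. CDH2 made up 99.0% and 99.2% of the summed FPKM of the 3 cadherins in the COLO858 DMSO libraries. In MMACSF CDH3 led with 64.3% and 55.6%, followed by CDH1 with 24.2% and 30.7% and CDH2 with 11.5% and 13.7%. In COLO858 the summed level was 73.7 and 87.7 FPKM in DMSO, 23.6 and 26.6 at 24 h and 32.0 and 40.0 at 48 h. The order of the 3 genes was the same in all 6 MMACSF libraries, and at 48 h CDH1 had 33.3% and 38.5%. Keratinocytes also express CDH1 and CDH3, and 0 of 5 keratinocyte markers reached 1 FPKM in any group.

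Claudin-1 (CLDN1), a membrane protein of tight junctions, had the largest rise of the 10 genes. In COLO858 it was 0.886 and 1.26 FPKM in DMSO, 4.90 and 6.52 at 24 h and 32.9 and 43.1 at 48 h. Each time was above the previous one in both libraries, and the means were 5.32-fold and 35.4-fold those in DMSO. Its log2 fold-change was 1.69 (SE 0.22, adjusted p = 0.00613) at 24 h and 4.23 (SE 0.22, adjusted p = 0.000621) at 48 h, which ranked 27 among all rises in that contrast. Between 24 and 48 h CLDN1 rose by a further 2.54 (SE 0.22, adjusted p = 0.00713). It was the only 1 of the 9 genes tested to change between the times, against 1.38% of all genes (1.17% higher), and without any 1 of those 4 libraries it was not past the threshold. In MMACSF CLDN1 was 0.221 and 0.370 FPKM in DMSO, 0 and 0.0707 at 24 h and 0.0505 and 0.0367 at 48 h. Between 24 and 48 h in MMACSF 0 of the 9 genes passed in limma, against 0.222% of all genes. The log2 difference between those times was 0.43 for SNAI1 (adjusted p = 0.674) and 0.55 for CDH1 (adjusted p = 0.557).

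Vimentin (VIM), the intermediate filament protein of mesenchymal cells, was among the most abundant transcripts, ranking 13 to 78 in the 12 libraries. Levels in COLO858 were 2288 and 1909 FPKM in DMSO, 1427 and 1151 at 24 h and 2702 and 2295 at 48 h. The 24 h libraries were the lowest, and the log2 fold-change was -0.71 (SE 0.17, adjusted p = 0.0350) at 24 h and 0.25 (SE 0.17, adjusted p = 0.325) at 48 h. From 24 to 48 h the log2 difference was 0.96 (adjusted p = 0.0383). In MMACSF it was 1870 and 1511 FPKM in DMSO, 2991 and 2332 at 24 h and 4026 and 3080 at 48 h, with log2 fold-changes of 0.65 (SE 0.21, adjusted p = 0.0881) and 1.07 (SE 0.21, adjusted p = 0.0206). None of these passed the threshold in the fit without a replicate block, and all of them did with it. The mean level at 48 h in MMACSF was 2.101 times that in DMSO.

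**Figure D4:**
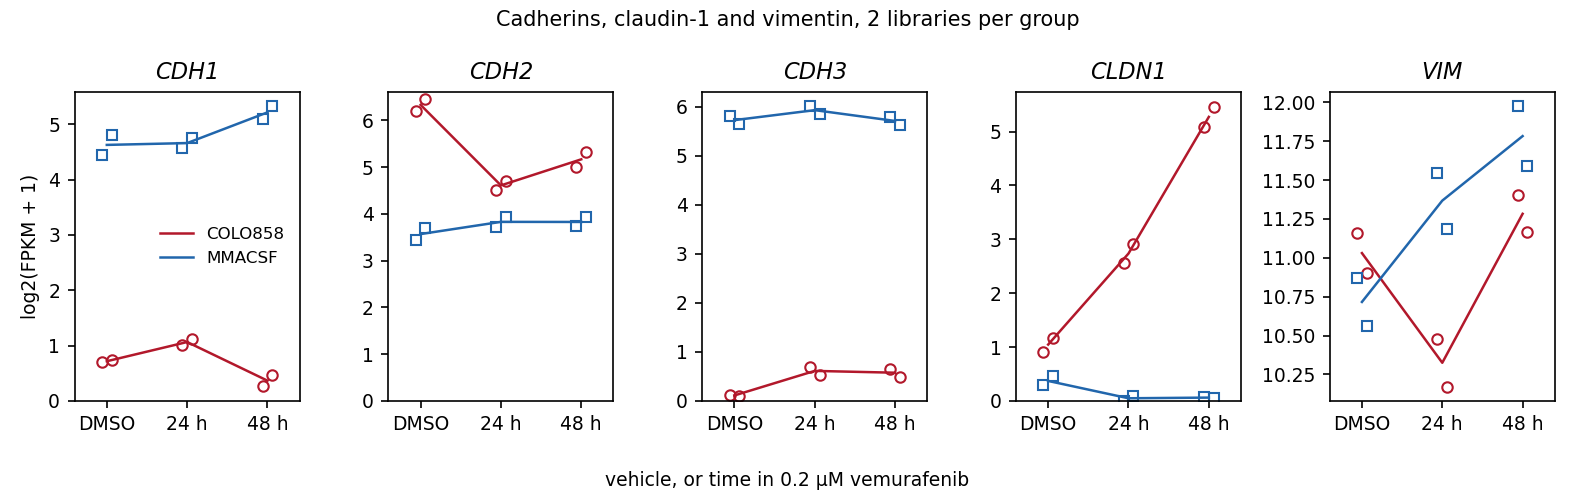
Level of the 3 cadherins, CLDN1 and VIM as log2(FPKM + 1) in each of the 12 libraries, with lines through the group means (COLO858 red circles, MMACSF blue squares; vertical scales differ and that of VIM does not start at zero). CLDN1 climbs at each time in COLO858 up to 32.9 and 43.1 FPKM, and CDH1 and CDH3 stay high in MMACSF and near zero in COLO858.

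The libraries of drug and DMSO did not overlap for 9 of 9 genes tested in COLO858 at each time, against 63.1% of all genes at 24 h and 61.3% at 48 h. In MMACSF they did not overlap for 7 of 9 at each time, against 59.8% and 64.5%. With 2 libraries against 2, an exact two-sided permutation test of a single gene cannot go below 0.333.

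Whether the lines differed in their response was tested as an interaction over the 12 libraries, in which all 10 genes passed the minimum in at least 1 line. The difference passed for SNAI2, CDH2 and CLDN1 at each time, 3 of 10 genes against 3.71% of all genes at 24 h and 7.48% at 48 h. SNAI2 rose more in COLO858, by a log2 difference of 1.95 (SE 0.25, adjusted p = 0.00298) at 24 h and 1.70 (SE 0.25, adjusted p = 0.00299) at 48 h. For CDH2 the difference was -1.98 (SE 0.24, adjusted p = 0.00204) and -1.42 (SE 0.24, adjusted p = 0.00527). For CLDN1 it was 2.01 (SE 0.25, adjusted p = 0.00232) and 4.54 (SE 0.25, adjusted p = 2.20e-05). CLDN1 entered this test through COLO858, and in MMACSF its low levels were compressed by the added 1 FPKM. With 0.1 FPKM added instead, its difference was 3.88 and 6.46. The 24 h difference did not pass with a minimum of 10 FPKM (adjusted p = 0.0150), and that at 48 h passed under all 14 alternatives. With 1 of the 8 libraries left out, fewer of these genes passed at each time, and so did fewer of all genes. The differences kept their sign in those fits. They ranged from 1.77 to 2.12 (SNAI2), -2.12 to -1.85 (CDH2) and 1.84 to 2.19 (CLDN1) at 24 h. At 48 h the ranges were 1.53 to 1.88, -1.58 to -1.27 and 4.35 to 4.72.

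Differences that did not pass included TWIST1 at -1.55 (adjusted p = 0.0521) and -1.74 (adjusted p = 0.0222), VIM at -1.36 (adjusted p = 0.0237) and -0.81 (adjusted p = 0.104), and CDH1 at 48 h at -0.94 (adjusted p = 0.0246). For SNAI1, which fell in both lines, the 95% interval of the difference ran from -0.33 to 0.56 at 24 h and from -0.97 to -0.08 at 48 h (adjusted p = 0.836 and 0.116). These intervals hold for 1 FPKM added, and with 0.1 FPKM the SNAI1 difference was 1.05 at 24 h (adjusted p = 0.0351) and -0.14 at 48 h. For ZEB2 it ran from -0.38 to 1.09 and from 0.21 to 1.67 (adjusted p = 0.622 and 0.0909). Line and growth medium cannot be told apart in these differences.

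**Figure D5:**
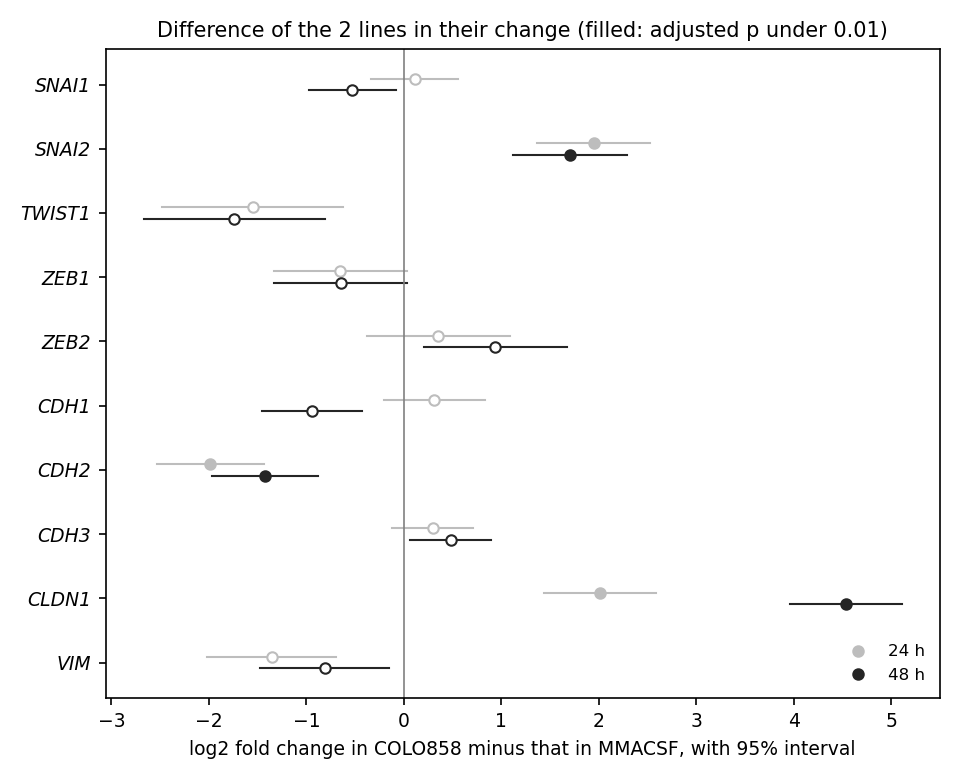
Log2 fold-change in COLO858 minus that in MMACSF for each gene at 24 and 48 h, with 95% intervals; filled symbols passed the adjusted p threshold of 0.01. CLDN1 at 48 h stands at 4.54 and CDH2 at -1.98 and -1.42.

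Genes with the most similar pattern were sought over the 12 libraries after each line's mean was subtracted, among 6111 candidates, with Pearson's r as a description. The points share the line, the DMSO libraries and the replicate number. SNAI1 was most like SDC3 (r = 0.995), ETV4 (0.994) and SH2D5 (0.993). SNAI2 was most like TP53INP1 (0.993), DCT (0.993) and PIK3R3 (0.990). DCT, dopachrome tautomerase of melanin synthesis, had means of 267, 2915 and 2150 FPKM in COLO858 (DMSO, 24 h and 48 h) and of 813, 2071 and 1828 in MMACSF. ZEB2 was most like TXNIP (0.995), SATB1 (0.992) and NR2F2 (0.992), and CDH2 was most like SPATS2L (0.984), XRCC4 (0.965) and RTTN (0.963). CLDN1 was most like CAV1 (0.982), VCL (0.982) and PMP2 (0.979). The caveolar protein gene CAV1 went from 6.56 FPKM in DMSO to 24.1 and 93.4 in COLO858 and was 40.7, 42.5 and 48.1 in MMACSF. PMP2, a myelin lipid carrier, went from 0.929 FPKM to 6.48 and 37.0 in COLO858 and was 1.26, 1.83 and 1.38 in MMACSF.

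Related genes were followed at 48 h against DMSO as lists, each beside the median log2 fold-change of all genes, which was -0.01 in COLO858 and 0.06 in MMACSF. Over all genes tested, 4.74% rose and 4.73% fell in COLO858, and 3.42% rose and 5.41% fell in MMACSF. Of the other regulators of the transition, 2 of 7 tested rose and 0 fell in COLO858 (list median 0.29), and 1 of 8 rose and 1 fell in MMACSF (median 0.01). SOX4, a factor placed upstream of the program in epithelia, rose in both lines, by 2.33 (SE 0.17, adjusted p = 0.00135) and 1.88 (SE 0.14, adjusted p = 0.00130). ID1, an inhibitor of helix-loop-helix factors, fell by 1.91 in MMACSF (adjusted p = 0.00797). Of the TGF-beta pathway, the best known inducer of the transition, 2 of 16 rose and 2 fell in COLO858 (median 0.14), and 1 of 11 rose in MMACSF (median 0.20). TGFBR2, the type II receptor, rose from a mean of 7.10 to 118 FPKM in COLO858 and from 26.9 to 133 in MMACSF.

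Among junction genes, 1 of 5 other cadherins rose in COLO858 (CDH6, 1.52 to 11.4 FPKM, log2 fold-change 2.28, adjusted p = 0.00394) and 1 of 4 in MMACSF (CDH26, 0.413 to 1.98 FPKM, log2 fold-change 1.07, adjusted p = 0.00861). The list medians were 0.62 and 0.75. Of the catenins and partners of the adherens junction, which tie cadherins to actin, 3 of 12 rose and 1 fell in COLO858 (median 0.39) and 1 of 12 rose in MMACSF (median 0.18). The actin linker VCL rose from 28.0 to 81.1 FPKM in COLO858, where the nectin gene PVRL1 fell from 2.89 to 0.638. The α-catenin gene CTNNA2 rose from 0.438 to 2.97 FPKM in MMACSF. Of the other tight junction genes, 1 of 8 rose and 2 fell in COLO858 (median 0.44), and 3 of 7 rose in MMACSF (median 0.50). The scaffold gene TJP1 rose from 9.43 to 23.8 FPKM in COLO858, where CLDN4, another claudin, fell from 5.07 to 0.204. CLDN15 rose from 5.52 to 17.8 FPKM in MMACSF. PVRL1 and CLDN4 in COLO858 reached the minimum of 1 FPKM in DMSO only, and CTNNA2 and CDH26 in MMACSF reached it only with the drug.

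Of the epithelial genes, 1 of 8 rose and 1 fell in COLO858 (median -0.36) and 1 of 5 rose in MMACSF (median -0.04). The epithelial splicing regulator ESRP1 rose in both, from 1.58 to 10.4 FPKM and from 8.96 to 24.4, and the keratin gene KRT18 fell in COLO858 from 61.3 to 9.04. Of the mesenchymal genes, 11 of 23 rose and 4 fell in COLO858 (median 0.67), against 4.74% and 4.73% of all genes. In MMACSF 4 of 16 rose and 3 fell (median -0.03), against 3.42% and 5.41% of all genes. SPARC, a matrix protein, rose from 147 to 1761 FPKM in COLO858, and the integrin gene ITGB3 fell from 174 to 15.3. The smooth muscle actin gene ACTA2 rose from 3.43 to 40.3 FPKM in MMACSF and the matrix gene TNC fell from 154 to 7.92. Of the other intermediate filament genes, 1 of 7 rose and 1 fell in COLO858 (median -0.38), and 0 of 5 rose and 2 fell in MMACSF (median -0.94). Nestin (NES) went from 118 to 241 FPKM and the neurofilament gene NEFL from 118 to 27.7 in COLO858, and the lamin gene LMNB1 from 23.8 to 1.99 in MMACSF.

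Markers of other cell types were read beside these lists. The shares of all genes at 48 h were 4.74% higher and 4.73% lower in COLO858, and 3.42% and 5.41% in MMACSF. The summed level of 5 fibroblast markers was 5.91 to 9.28 FPKM in COLO858 in DMSO and 22.3 to 33.3 at 48 h, where 1 of the 2 tested rose (COL3A1, 0.165 to 6.56 FPKM, at the minimum only with the drug). In MMACSF the sum was 54.7 to 76.5 FPKM in DMSO and 19.1 to 27.8 at 48 h, with 0 of 2 past the threshold. The part of this change in the mesenchymal list was not tested. Of 4 immune markers only CD68 reached 1 FPKM, and it fell from 13.0 to 4.44 in COLO858 at 48 h. In MMACSF CD68 had 82.0 FPKM in DMSO and 80.1 at 48 h, and it did not pass the threshold there. The 4 endothelial markers were below 1 FPKM in every group. Of the melanocyte lineage markers, 3 of 6 rose in COLO858 and 3 of 7 in MMACSF at 48 h (medians 1.47 and 1.01). Their summed level was 589 to 604 FPKM in COLO858 in DMSO and 3111 to 3148 at 48 h, and 10303 to 10591 and 16125 to 16915 in MMACSF.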

How the data were processed

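RNA-seq of 12 libraries was analysed from 1 table per cell line of FPKM values deposited by the authors. The authors mapped single reads of stranded mRNA libraries to hg19 with TopHat and obtained gene values with Cuffdiff, per the labels and the Methods. Program versions, the annotation, the strand setting and the scaling of the libraries are not given in the sources used here. The tables may have been scaled separately, so levels were not tested across lines. Depth is unknown, since whole reads cannot be recovered, and so is the precision it gives.

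Each line was fitted with limma 3.58.1 in R 4.3.3 on log2(FPKM + 1), with 3 groups and a mean-variance trend. A gene entered where the mean of any group reached 1 FPKM, and tests were two-sided, with Benjamini-Hochberg adjustment over all of them and a threshold of 0.01. The interaction used 6 groups. Samples were grouped by title. The labels give 2 replicate numbers per condition, and the Methods describe plates seeded in 2 replicates. The p-values measure only the spread between these replicates, which may be technical. The scripts were tested on simulated data. All columns were used (0 left out).

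The genes and lists were chosen with earlier results of these data known. Named genes were the 10 members, the largest rise and fall past the threshold at 48 h in each list and line, and the 3 genes most correlated with each member that passed. A gene that this rule would name is not reported here. Alternatives were another pseudocount (0.1), other minima (none or 10 FPKM), a replicate block, median-ratio rescaling, no trend, the omission of each library, and fits restricted to the 4 libraries of a contrast.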

Additional observations from a re-analysis of the deposited data

Results flagged for a closer look

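The response to vemurafenib differed between COLO858 and MMACSF, by the interaction test in limma, for 3 of the 10 genes at each time. The share over all genes was 3.71% at 24 h and 7.48% at 48 h. In every fit with 1 library left out, fewer of the 10 genes passed than in the main fit. For SNAI2 the log2 fold-change in COLO858 minus that in MMACSF was 1.95 at 24 h and 1.70 at 48 h (adjusted p = 0.00298 and 0.00299), and the gene had higher levels in all drug libraries of both lines. For CDH2 the difference was -1.98 and -1.42 (adjusted p = 0.00204 and 0.00527), with lower levels in 4 of 4 drug libraries of COLO858. For CLDN1 it was 2.01 and 4.54 (adjusted p = 0.00232 and 2.20e-05), with MMACSF below 1 FPKM in every library, where the added 1 FPKM compresses changes. With 0.1 FPKM added it was 3.88 and 6.46.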

How the results depend on the processing

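Depth, which FPKM do not give, limits what can be said of low genes such as CLDN1 in MMACSF. The groups of each line carry the same replicate numbers, and the labels name no shared batch or day. Same-numbered libraries deviated together with r = 0.196 to 0.211 in COLO858 and 0.0628 to 0.113 in MMACSF. The main fit left the number out. Replicate 2 was above replicate 1 in every group for SNAI2, ZEB1, ZEB2, CDH1 and CDH2, and below it for TWIST1, CDH3 and VIM. The cause of this was not tested. With the number as a replicate block, the genes past the threshold went from 5 to 8 in COLO858 at 24 h, from 4 to 8 at 48 h and from 1 to 5 between the times, from 2 to 5 in MMACSF at 48 h, and from 3 to 5 (24 h) and 3 to 8 (48 h) for the difference between lines. The genes gained in COLO858 were TWIST1, ZEB1 and VIM at 24 h, these and CDH2 at 48 h, and SNAI2, ZEB2, CDH2 and VIM between the times. In MMACSF they were VIM at 24 h and SNAI2, CDH1 and VIM at 48 h, and for the difference TWIST1 and VIM at 24 h and these with ZEB2, CDH1 and CDH3 at 48 h. Over all genes, the block gave 5719, 5549, 2280, 3284, 3790, 2396 and 3434 calls, against 1247, 1202, 175, 734, 1113, 505 and 1017 (COLO858 at 24 h, 48 h and between them, MMACSF at 24 and 48 h, the difference at 24 and 48 h). In fits on only the 4 libraries compared, the counts in COLO858 were 3 at 24 h (477 over all genes), 3 at 48 h (380) and 0 between the times (13), and in MMACSF 0 at 24 h (59), 1 at 48 h (364) and 0 between the times (14). Without a minimum they were 0 (COLO858 between the times), 1 (MMACSF at 24 h) and 1 (MMACSF at 48 h). Over all genes, 86 of 18234, 523 of 17710 and 842 of 17710 passed in those fits. MMACSF at 48 h also gave 1 with a minimum of 10 FPKM (838 over all genes) and 1 without the trend (997 over all genes). Minima of 10 FPKM gave 831, 779, 546, 275 and 691 genes where the main fit gave 1247, 1202, 734, 505 and 1017, and a pseudocount of 0.1 gave 336 for the difference at 24 h. That pseudocount also brought the CDH3 difference at 48 h past the threshold (1.72), and median-ratio rescaling brought in CDH2 in COLO858 and SNAI2 in MMACSF at 48 h.

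With each library left out in turn, fewer of the 10 genes and fewer of all genes passed than in the main fit. This held for every contrast but MMACSF between the times, where no gene of the 10 had passed in the main fit. Of the single results, 10 turned their sign in 20 alternative fits in all, and those were not past the threshold. Median-ratio rescaling turned CDH1 in MMACSF at 24 h (-0.0336) and CDH2 in MMACSF between the times (0.0157). Leaving out a library turned TWIST1 in COLO858 between the times (-0.46 to 0.20) and in MMACSF at 24 h (-0.21 to 0.20), at 48 h (-0.23 to 0.35) and between the times (-0.23 to 0.35). It also turned ZEB1 in COLO858 between the times (-0.395 to 0.0542), CDH1 in MMACSF at 24 h (-0.15 to 0.21), CDH3 in MMACSF at 48 h (-0.103 to 0.0709), ZEB2 (-0.390 to 0.00969) and CDH2 (-0.12 to 0.11) in MMACSF between the times, and the difference for SNAI1 at 24 h (-0.0267 to 0.254). The cause was not tested.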
